A study of Mus musculus with 6 samples.

Results

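G protein-coupled receptors are multi-pass membrane proteins that pass an outside signal to heterotrimeric G proteins inside the cell. Described here, in sorted vascular smooth muscle cells, are the following kinds. Some are the adhesion receptors (gene symbols beginning with Adgr), which carry a long extracellular part that binds matrix and neighbouring cells and is often cut next to the membrane, leaving a stretch that can act as a tethered agonist. The others are the receptors whose genes still bear a Gpr number, most of them orphans for which no ligand is generally agreed, together with a few that have since been paired with one. In vessels these receptors are known for roles in barrier function, contact with the basement membrane and the sensing of acid and lipids.

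The members were all protein-coding genes of the deposited table with a symbol of Gpr followed only by a number, or beginning with Adgr. There were 88 of 32179 listed genes, 27 adhesion receptors and 61 Gpr-numbered genes. Gprc5c, the gene deleted in the study, and its Gprc relatives are not among them. The Celsr genes, which encode adhesion receptors under another symbol, are not members either and are given with the partner genes. Members with a mean of at least 10 normalised counts over the 6 libraries were compared between groups, which left 34, 14 adhesion and 20 Gpr-numbered.

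The study depleted the orphan receptor GPRC5C from smooth muscle and asked how gene expression responds. Smooth muscle cells were sorted as viable EGFP-positive cells from digested skeletal muscle of male C57BL6J mice aged 8 to 24 weeks, after beads had removed cells positive for CD31, CD45 or Ter119. There were 3 control libraries (genotype label wild type) and 3 libraries labelled iSM-G5C-KO, below called KO. Both groups received tamoxifen and carried the mTmG reporter, and the source label of both reads Gprc5c-floxed. The Cre driver and any pooling of animals are not stated in the labels. Nor do the labels tie each library to an animal of its own, and the spread behind each p-value may be partly technical.

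The libraries held 2030819 to 2216011 normalised counts, from an estimated 1479598 to 2935114 reads. All 12 fixed smooth muscle markers were listed, with sums of 13135 to 15558 per library, so the labelled cell type is present throughout. Control library 3 stood apart, with 29707 genes above 0 against 20481 to 21179 in the others. Gprc5c had means of 485.7 ± 52.9 and 331.0 ± 27.6 (SD, n = 3 each), which is 68.2% of control. No KO library reached the lowest control (exact permutation test, 2-sided, p = 0.1, the smallest possible with 3 libraries a group). Sums of the skeletal muscle fibre list ran from 1814 to 4458 in controls and from 2528 to 9829 in KO, highest in KO library 3. Ttn alone was at 422, 442 and 868 in controls against 660, 1638 and 5386 in KO, so the sum leans on it. Acta1, of the same list, was at 488 in control library 3 and at 399 in KO library 3.

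Adhesion receptors supplied most of the counts of these genes. They held 69.6% of all normalised counts of the 88 members, but 54.2% when each gene was divided by its exon length, and the 7 adhesion receptors with the highest means held 64.4%. A mean of at least 100 was reached by 13 members, 7 of them adhesion receptors. A further 21 lay between 10 and 100, and 54 lay below 10. Because fewer cells of a type and less RNA per cell cannot be told apart in bulk RNA, each value below is an amount in the sorted population.

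Levels of different genes were compared per kb of annotated exon (GENCODE M21, the union of all exons of a gene). By mean over all 6 libraries the order began with Adgre5 at 136.0 normalised counts per kb, Adgrl1 at 85.3, Adgra2 at 74.3, Adgrf5 at 73.8, Gpr20 at 63.2 and Gpr153 at 59.6. On the same scale Gprc5c was at 77.9, with a range of 58.2 to 101.4, so only Adgre5 and Adgrl1 among the members had a higher mean. In the control libraries alone the order was Adgre5 at 126.2, Adgrl1 at 96.0, Gpr20 at 75.6, Adgra2 at 74.6, Gpr153 at 57.5 and Adgrf5 at 55.3, with Gprc5c at 92.6 ± 10.1 (SD, n = 3), within the spread of Adgrl1 (SD 17.4). Neighbours in this order were not separated by their spread. Adgre5 ranged from 99.3 to 174.1 per kb over the libraries and Adgrl1 from 60.3 to 112.3, Adgra2 from 59.6 to 85.4, Adgrf5 from 39.8 to 114.5 and Gpr20 from 34.5 to 100.3. Gpr180 at 48.9, Gpr108 at 42.8, Adgrg6 at 31.3, Adgra3 at 30.3 and Adgrl2 at 26.6 followed. At the low end of the tested members stood Adgrl3, Adgrl4, Gpr173, Adgrg1 and Adgrb1, between 1.73 and 3.35 per kb.

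**Figure D1:**
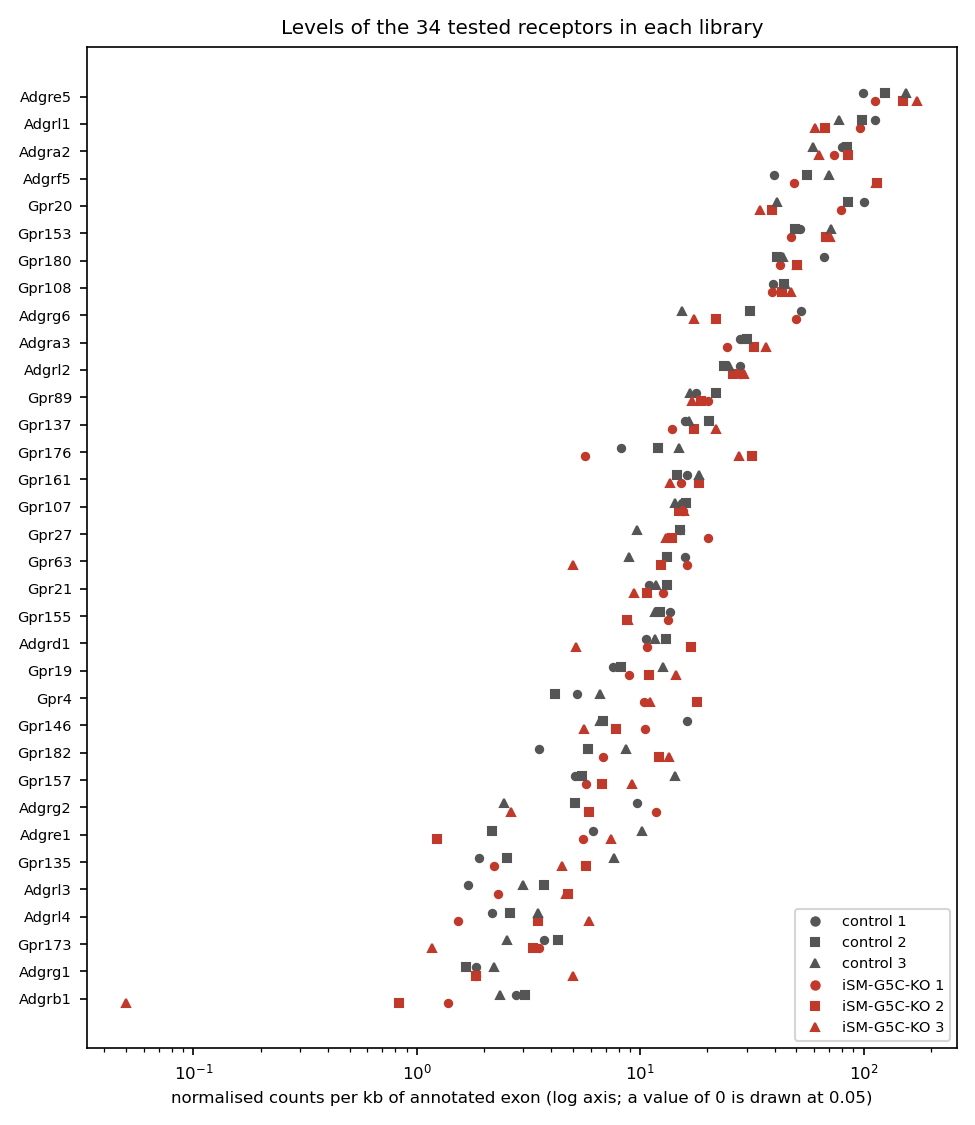
Level of each of the 34 tested receptors in each library, in normalised counts per kb of annotated exon on a log axis, with controls in grey, KO libraries in red and the replicate number as the marker shape. Adgre5 and Adgrl1 have the highest means, 136.0 and 85.3 per kb, and the single 0, Adgrb1 in KO library 3, is drawn at 0.05.

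None of the 34 tested members passed limma's test at an adjusted p of 0.05, and each had an adjusted p of 0.999. Over all 12735 tested genes 0.0% passed. With the replicate number as a block, which compares libraries of the same number with each other, 0 members passed, against 0.00785% of all genes. Gprc5c, the deleted gene, did not pass either (limma, adjusted p = 0.999, and adjusted p = 0.142 with the replicate block), so a fall to 68.2% of control was not called here. At an unadjusted p under 0.05 there were 2 members, Gpr4 with higher and Adgrb1 with lower values in KO libraries, where the share over all genes was 1.81% (1.03% higher and 0.777% lower). With the block there were 8, 5 higher and 3 lower, where the share over all genes was 10.2% (4.29% higher and 5.96% lower). The groups did not overlap in the same 2 genes, Gpr4 and Adgrb1, where 4.91% of all tested genes did not overlap (2.69% higher and 2.21% lower), so this count is close to the background. The KO library lay on the same side of the control in all 3 numbers in 13 of 34 members, where the share over all genes was 29.4%. Of these 7 were higher and 6 lower, where the shares over all genes were 14.0% and 15.4%.

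As a whole the members were balanced. The log2 fold change (KO over control, on the log2(value + 1) scale, which understates changes of low genes) was above 0 in 17 members and below 0 in 17, where 50.2% of all genes were above 0, and its median was 0.0030 beside 0.0011 over all tested genes. The 14 adhesion receptors had 8 higher and 6 lower, with a median of 0.095, and the 20 Gpr-numbered genes 9 higher and 11 lower, with a median of -0.0080. The size of the difference, without its sign, had a median of 0.22 in members and 0.13 over all genes. Each estimate was loose. The 95% interval of a member reached a median of 0.77 to either side, and 0.49 over all genes, so a difference of that size in a single receptor was often not detectable without the block. With the replicate block the medians were 0.43 in members and 0.34 over all genes.

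**Figure D2:**
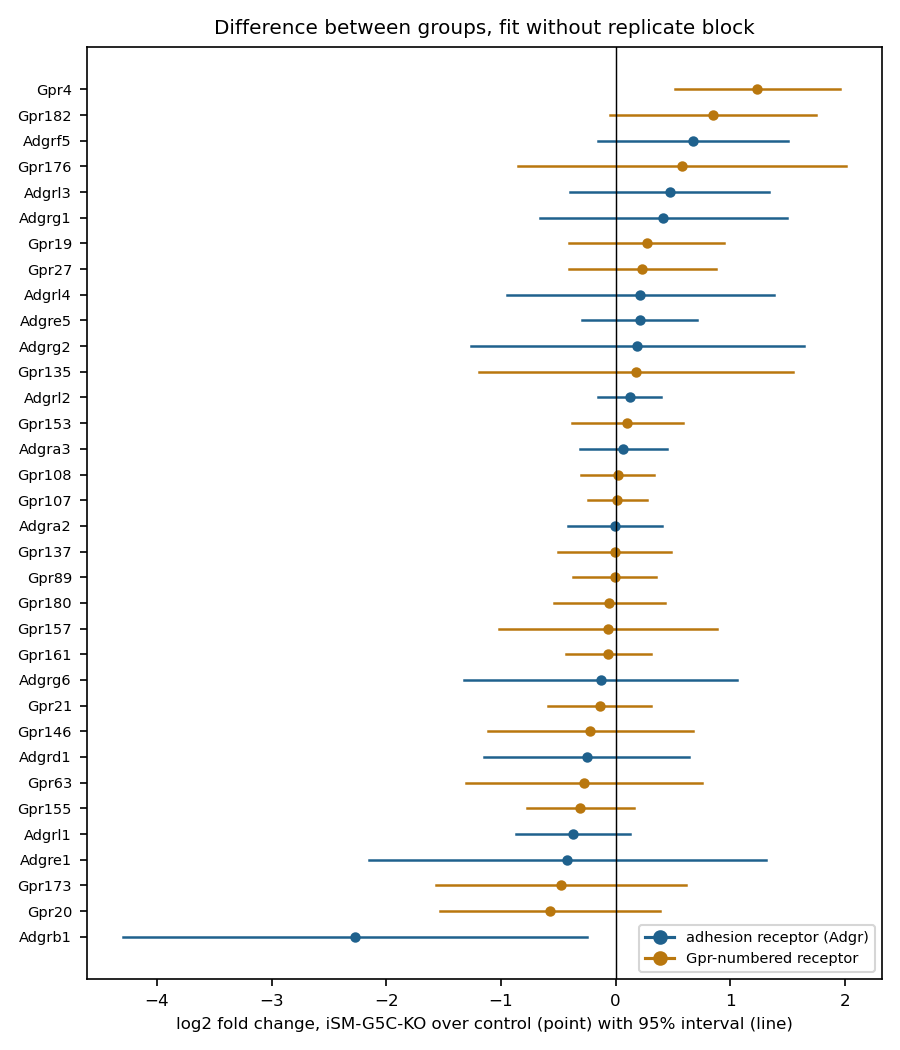
Log2 fold change of KO over control libraries for each tested receptor, with its 95% interval from limma without a block, adhesion receptors in blue and Gpr-numbered receptors in ochre. The intervals of Gpr4 (0.52 to 1.95) and Adgrb1 (-4.30 to -0.25) lie on 1 side of 0 and all others cross it.

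Gpr4, a receptor that senses extracellular protons and is known from endothelium, had the largest positive difference. It was at 15, 12 and 19 normalised counts in control libraries 1, 2 and 3 and at 30, 52 and 32 in KO libraries 1, 2 and 3. Every KO library lay above every control, and the KO library numbered 2 was the highest. The log2 fold change was 1.24 ± 0.31 (SE) (limma, unadjusted p = 0.00443, adjusted p = 0.999, and adjusted p = 0.229 with the replicate block). The gene lies on chromosome 7 from 19212538 to 19224174 (GRCm38, plus strand). Its relatives in acid sensing were scarce: Gpr132 was at 11, 0 and 11 in controls against 6, 0 and 0 in KO, and Gpr65 did not exceed 2 in any library.

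Adgrf5, an adhesion receptor of endothelium and lung epithelium, was at 359, 504 and 633 in controls against 441, 1032 and 1022 in KO. The KO value was the higher in each replicate number, but KO library 1 lay below control libraries 2 and 3, so the groups overlapped. Its log2 fold change was 0.67 ± 0.36 (SE) (limma, adjusted p = 0.999, and adjusted p = 0.142 with the replicate block). An alternative chosen after seeing the data, the block without either library numbered 1, gave 0.86 and passed (limma, adjusted p = 0.0225). Without KO library 1 and with no block it was 1.08. Adgrf5 lies on the plus strand of chromosome 17, 43360451 to 43459557.

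Gpr182, a receptor of endothelial cells that takes up chemokines, was at 14, 23 and 34 in controls against 27, 48 and 53 in KO. Each KO library was above the control of its number, and KO library 1 was below control library 3. KO over control, its log2 fold change was 0.85 ± 0.39 (SE) (limma, adjusted p = 0.999, and adjusted p = 0.245 with the replicate block), and it was 0.54 without control library 1. Adgrl4, another adhesion receptor of endothelium, was at 10, 12 and 16 in controls against 7, 16 and 27 in KO, with a log2 fold change of 0.22 ± 0.50 (SE).

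Endothelial markers also had higher KO means, though none passed the test. All 15 markers of the fixed list were tested and all 15 had a higher KO mean on the log2 scale, where 50.2% of all genes did. Of these, 5 (Tek, Pecam1, Eng, Flt1 and Cdh5) were higher in each of the 3 numbers, where the share over all genes was 14.0%. The smallest adjusted p from limma was 0.999, and 0.229 with the replicate block. Egfl7 and Cldn5 had control means of 9.0 and 8.7 and KO means of 18.3 and 14.3. They passed the filter through their KO values, so they could be tested only by being higher there. None of the 15 was at 0 in any library, although CD31-positive cells had been depleted. Their summed level was 955, 1231 and 1555 in controls against 1007, 1911 and 2024 in KO. By mean over the 6 libraries, Esam at 379.5, Eng at 296.5 and Flt1 at 250.8 were the largest of the 15. Pecam1 and Cdh5 were at 60.2 and 59.3. A ratio to the sum therefore leans on Esam, Eng and Flt1. Per 100 counts of that sum, Adgrf5 was at 37.6, 40.9 and 40.7 in controls against 43.8, 54.0 and 50.5 in KO. Gpr182 was at 1.47, 1.87 and 2.19 against 2.68, 2.51 and 2.62, and Gpr4 at 1.57, 0.975 and 1.22 against 2.98, 2.72 and 1.58. These 3 ratios did not overlap between groups, but Gpr4 only barely, at 1.57 in control library 1 beside 1.58 in KO library 3. How often the ratios of other genes to this sum do not overlap was not counted. Adgrl4 was at 1.05, 0.975 and 1.03 against 0.695, 0.837 and 1.33, which overlapped. Of the marker genes themselves, Flt1 was at 10.5, 15.0 and 15.5 against 11.6, 25.2 and 18.8, and Kdr at 4.19, 3.57 and 4.50 against 3.48, 3.45 and 4.15, with overlap in both. The 6 ratios were chosen after the values were seen, and the part of endothelial RNA in the differences was not tested. All 10 pericyte markers likewise had a higher KO mean (median 0.20 on the log2 scale). Of them 9, all but Cspg4, were higher in each of the 3 numbers, where the share over all genes was 14.0%. None of the pericyte markers passed (limma, smallest adjusted p = 0.999, and 0.186 with the replicate block). Their part in the receptors with higher KO values was not tested either.

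**Figure D3:**
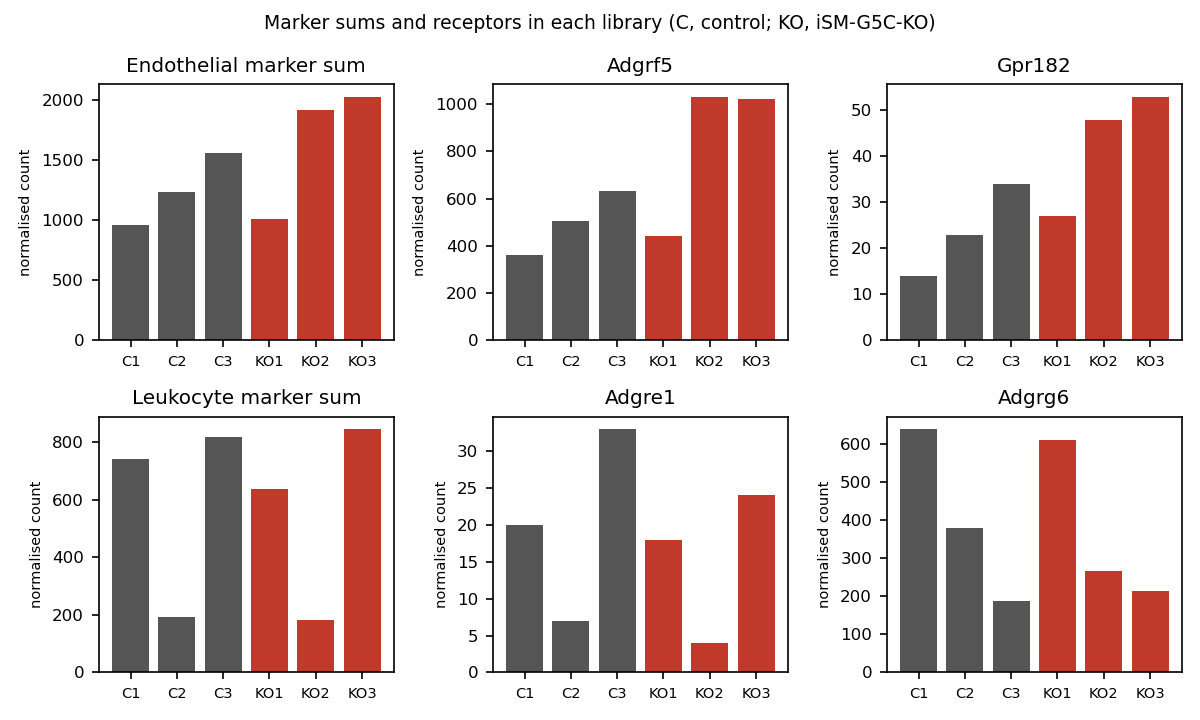
Normalised counts in each library for the sums of the endothelial and leukocyte marker lists and for 4 receptors, controls in grey and KO libraries in red. Within each group the endothelial sum, Adgrf5 and Gpr182 are lowest in number 1, the leukocyte sum and Adgre1 are lowest in number 2, and Adgrg6 is highest in number 1.

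Latrophilins, adhesion receptors that bind teneurins and FLRT proteins on other cells, were all above the filter. Adgrl1 was at 964, 841 and 667 in controls against 831, 575 and 518 in KO. The KO value was the lower in each number, while KO library 1 lay above control library 3. The log2 fold change was -0.37 ± 0.21 (SE) (limma, adjusted p = 0.999, and adjusted p = 0.185 with the replicate block), and leaving out KO library 1 or KO library 3 gave -0.58 or -0.24. Adgrl3 was at 30, 66 and 53 in controls against 41, 84 and 83 in KO, higher in KO in each number, with a log2 fold change of 0.47 ± 0.37 (SE). Its adjusted p from limma with the replicate block was 0.357, and leaving out control library 1 or KO library 1 gave 0.15 or 0.81. Adgrl2 varied little, at 397, 336 and 353 in controls against 396, 370 and 415 in KO, and its 95% interval of -0.15 to 0.40 was among the narrowest of the members. Adgrl1 lies on the plus strand of chromosome 8, 83900105 to 83941954, and 1107 bp of its exons overlap Gm10644 on the opposite strand, which had a mean of 9.0.

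Adgre5, which binds the complement regulator encoded by Cd55 and is best known from leukocytes, was at 373, 467 and 582 in controls against 423, 566 and 654 in KO. Each KO library was slightly above the control of its number, the groups overlapped widely, and the log2 fold change was 0.21 ± 0.21 (SE). With the replicate block its adjusted p from limma was 0.394. Dropping control library 1 gave 0.048, and it was 0.069 without KO library 3, and 0.37 and 0.38 without control library 3 and KO library 1. Its exons share 895 bp with Ddx39 on the opposite strand, at a mean of 86.3, and the labels do not say whether counting used the strand. Adgre1, a macrophage receptor of the same subfamily, was far lower, at 20, 7 and 33 in controls against 18, 4 and 24 in KO. It was lowest in both libraries numbered 2, where the sum of 16 leukocyte markers was 193 and 181, against 635 to 845 in the other 4 libraries. Of that list 7 of 11 tested markers had a higher KO mean on the log2 scale, where 50.2% of all genes did, but none was higher in each number. The largest rise on that scale was in Ptprc, at 72, 1 and 23 in controls against 47, 8 and 43 in KO, with a log2 fold change of 0.81. C1qb, Laptm5, Cd68 and Lyz2 followed with 0.21, 0.20, 0.15 and 0.14. Of the 11, 2 were lower in each number, as Adgre1 was, where the share over all genes was 15.4%. They were the macrophage markers Mrc1, at 96, 36 and 121 in controls against 91, 15 and 59 in KO, and Csf1r, at 67, 24 and 103 against 61, 13 and 73. The untested leukocyte markers, among them Aif1, Cd3e, Itgam and Tyrobp, were under a mean of 10. Their part in the Adgre1 values was not tested.

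Adgrb1, a receptor for phosphatidylserine on dying cells, had the largest negative difference and some of the lowest values. It was at 20, 22 and 17 in controls against 10, 6 and 0 in KO. All KO values lay below all controls, and the 0 in KO library 3 allows up to 3 reads, or 4.2 normalised counts (counting error only). Its log2 fold change was -2.27 ± 0.87 (SE) (limma, unadjusted p = 0.0323, adjusted p = 0.999, and adjusted p = 0.275 with the replicate block). It rests in part on that 0, since it was -1.23 without KO library 3, and on the pseudocount, since it was -1.39 with 5 and -2.63 with 0.5 in place of 1. Adgrb1 passed the filter, with a mean of 12.5, through its control values, so it could enter the comparison only by being higher there. It lies on the plus strand of chromosome 15, 74516195 to 74589464. Its subfamily members Adgrb2 and Adgrb3 did not exceed 7 in any library.

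Gpr20, an orphan receptor known from interstitial cells of the gut, was at 215, 183 and 88 in controls against 170, 83 and 74 in KO. The KO value was the lower in each number, and both groups spanned a wide range. KO over control, its log2 fold change was -0.57 ± 0.41 (SE) (limma, adjusted p = 0.999, and adjusted p = 0.295 with the replicate block). Leaving out control library 1 or KO library 3 gave -0.32 or -0.35, and leaving out KO library 1 or control library 3 gave -0.94 or -0.96. The gene lies on the minus strand of chromosome 15 from 73694604 to 73707505. Beside Adgrl1 and Gpr20, 11 of 12 smooth muscle markers had a lower KO mean on the log2 scale, with a median of -0.11. These include nearly unchanged genes, Des at -0.003, Tagln at -0.018 and Acta2, with means of 1106.7 and 1108.3 normalised counts in control and KO. The largest falls were in Ldb3 at -0.64, Actg2 at -0.36 and Cnn1 at -0.29. Ldb3 was at 612, 522 and 369 in controls against 513, 300 and 200 in KO. Of the 12, 3 (Ldb3, Smtn and Lmod1) were lower in each of the 3 numbers, where the share over all genes was 15.4%. None passed (limma, smallest adjusted p = 0.999, and 0.148 with the replicate block). The part of these markers in the Adgrl1 and Gpr20 values was not tested.

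**Figure D4:**
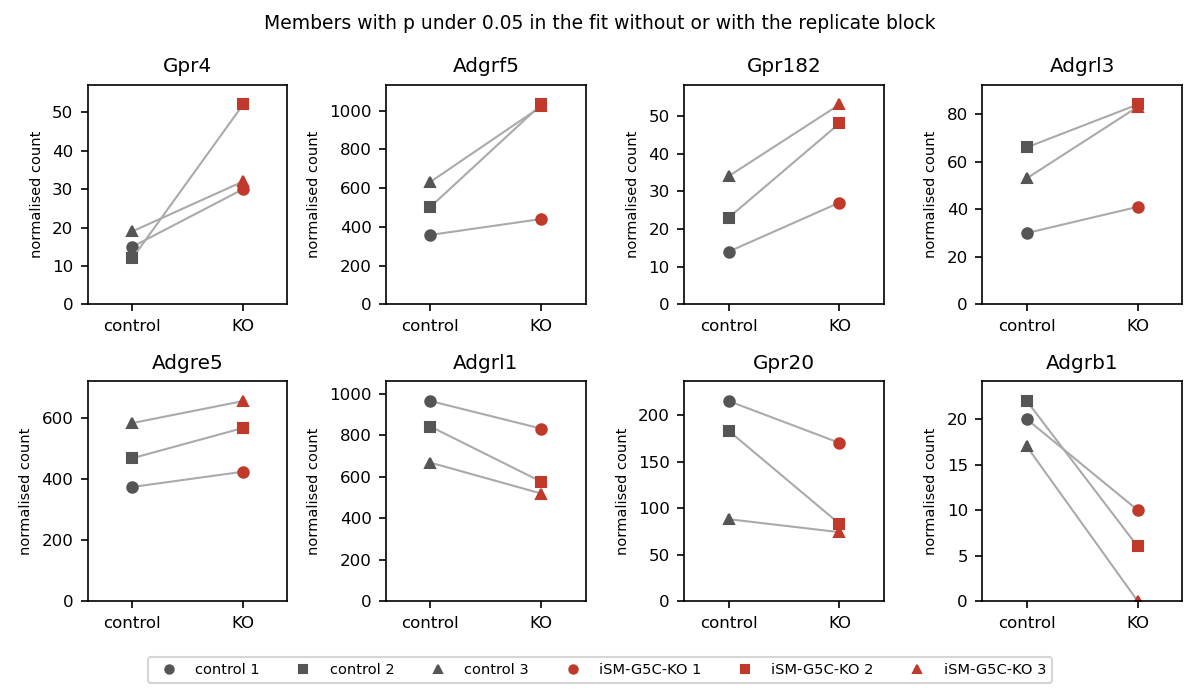
Normalised counts of the 8 receptors with an unadjusted p under 0.05 in the fit without or with the replicate block, with a line joining the control and the KO library of the same replicate number and each axis starting at 0. The lines of Gpr4, Adgrf5, Gpr182, Adgrl3 and Adgre5 go up in all 3 numbers and those of Adgrl1, Gpr20 and Adgrb1 go down, while only Gpr4 and Adgrb1 have groups that do not overlap.

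Differences between replicate numbers were larger than those between groups for several members. Adgrg6, an adhesion receptor that binds type IV collagen and laminin and is known for its role in Schwann cell myelination, was at 639, 378 and 188 in controls against 610, 266 and 213 in KO. Its level therefore stepped down over the numbers 1, 2 and 3 in both groups, while its means were 401.7 ± 226.4 and 363.0 ± 215.5 (SD, n = 3 each). Its log2 fold change was -0.13 ± 0.51 (SE). A fall over the 3 numbers in both groups was seen in 6 of 34 members: Adgrg6, Adgrl1, Gpr20, Gpr146, Adgrg2 and Gpr63. The share over all tested genes was 12.2%.

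The opposite order, a rise over the numbers in both groups, was seen in 6 members: Adgre5, Gpr108, Gpr157, Gpr182, Gpr19 and Adgrl4, where the share over all genes was 9.12%. The estimated depth also goes down over the numbers in both groups, from 2935114 to 1556750 reads in controls and from 2581454 to 1479598 in KO libraries. The sum of 10 pericyte markers goes up, from 11349 to 17115 and from 12063 to 19696. The smooth muscle sum was 15037, 15558 and 15474 in controls against 15297, 13135 and 14706 in KO. Number, depth and pericyte markers cannot be told apart in these libraries. The sum of 10 Schwann cell and nerve markers was 617, 487 and 520 in controls against 606, 580 and 561 in KO, highest in number 1 in each group but over a much narrower range than Adgrg6, and its part in the Adgrg6 values was not tested.

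The other abundant adhesion receptors were Adgra2 and Adgra3. Adgra2 is a co-receptor for WNT7 signals in brain vessels and is also found in pericytes. It was at 464, 485 and 344 in controls against 425, 493 and 363 in KO, nearly the same in each number, with a log2 fold change of -0.0080 and a 95% interval of -0.42 to 0.40. Its WNT7 ligands were nearly absent, with Wnt7a and Wnt7b at or below 4 in every library, while Reck, which binds them together with it, was at 134 to 184. Adgra3 was at 227, 244 and 244 in controls against 199, 262 and 298 in KO, with a log2 fold change of 0.067. Adgrd1 was at 88, 108 and 97 in controls against 89, 141 and 43 in KO, so that its lowest and its highest value were both in KO libraries.

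Multi-pass proteins of internal membranes also carry Gpr names, and all 6 that were listed passed the filter: Gpr107 and Gpr108, which are found in the Golgi and endosomes, Gpr89, which regulates Golgi pH, Gpr137 and Gpr155, which are lysosomal, and Gpr180. Gpr107 was at 197, 204 and 182 in controls against 198, 190 and 200 in KO, and its 95% interval of -0.25 to 0.27 was the narrowest of the 34. Gpr108 was at 112, 126 and 127 in controls against 111, 123 and 136 in KO. Gpr89 was at 95, 117 and 90 in controls against 108, 100 and 91 in KO, and it shares 1333 exon bases with Pdzk1 on the opposite strand. The log2 fold changes of these 3 lay between -0.0080 and 0.017. The other 3 had wider intervals. Gpr155 was at 91, 82 and 78 in controls against 89, 58 and 59 in KO, with a log2 fold change of -0.31 and 95% limits of -0.77 and 0.16. Gpr180 was at 124, 77 and 82 against 79, 94 and 94, with limits of -0.54 and 0.43, and Gpr137 at 54, 69 and 56 against 47, 59 and 74, with limits of -0.50 and 0.48.

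Among the remaining orphans, Gpr153 was at 202, 193 and 279 in controls against 184, 264 and 276 in KO, with a log2 fold change of 0.10. Gpr161, a receptor of the primary cilium that restrains hedgehog signalling, was at 113, 102 and 127 in controls against 106, 127 and 95 in KO, with -0.064. Gpr176, known for setting the pace of the circadian clock in the brain, varied widely. It was at 32, 47 and 58 in controls against 22, 123 and 108 in KO, and the difference was -0.52 for number 1 and 1.37 and 0.89 for numbers 2 and 3. Gpr21 was at 35 to 49 in all libraries. It lies inside Rabgap1 on the same strand, and their exons share 74 bp. Its reads could not be told apart from unspliced Rabgap1 RNA, which was not measured. The Rabgap1 gene as counted had a mean of 350.3.

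The filter at a mean of 10 fell in a gap. Just above it were Adgrb1 at 12.5, Gpr135 at 12.8 and Adgrg1 at 13.0, and just below it Gpr162 at 5.83, Gpr132 at 4.67 and Adgrb2 at 4.50. Gpr135 was at 6, 8 and 24 in controls against 7, 18 and 14 in KO, and Adgrg1, a receptor for type III collagen and transglutaminase 2, at 10, 9 and 12 against 10, 10 and 27. Of the 54 members below the filter, 42 did not exceed 5 in any library, and the highest single value was 15, Adgrv1 in control library 3.

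The 11 members grouped here as receptors with known or proposed lipid, oxysterol or metabolite ligands were all in this low group. The grouping may leave out other members with such ligands. These 11, among them the oxysterol receptor Gpr183, the lysophosphatidylserine receptors Gpr34 and Gpr174 and the zinc receptor Gpr39, did not exceed 6 in any library. Gpr183 was at 5, 4 and 5 in controls against 2, 0 and 1 in KO, a span of very few reads that was not tested. The class C orphans Gpr158 and Gpr179 did not exceed 1 outside control library 3, where both were at 5. Control library 3 held the highest value of 26 of the 54 low members and was the only library above 0 for 10 of them. It listed 4 of the 54 at 0, against 21 to 33 in the other libraries.

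Known or proposed ligands, binding partners and signal transducers of the members were taken as 2 lists. In the list for adhesion receptors 22 of 33 listed genes were tested and 0 passed in either direction with limma, with 11 higher, 11 lower and a median log2 fold change of 0.0060. In the list for orphan receptors 22 of 25 were tested and 0 passed, with 13 higher, 9 lower and a median of 0.050. With the block 0 passed in either list. At an unadjusted p under 0.05 without a block there was 1 gene in the first list and 0 in the second, where the share over all genes was 1.81%, and with the block 6 and 2, where it was 10.2%.

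That gene was Tenm3, a teneurin and so a latrophilin ligand, at 41, 25 and 37 in controls against 17, 18 and 22 in KO. Its groups did not overlap and its log2 fold change was -0.80 ± 0.27 (SE) (limma, adjusted p = 0.999). Tenm4, another teneurin, was at 165, 87 and 85 in controls against 115, 57 and 41 in KO, the KO value being the lower in each number, with a log2 fold change of -0.72 ± 0.41 (SE), which was -0.40 without KO library 3, -0.41 without control library 1 and -1.13 without KO library 1. Prnp, which encodes the prion protein, a ligand of Adgrg6, was at 117, 112 and 80 in controls against 120, 144 and 141 in KO, without overlap and with a log2 fold change of 0.40 (limma, adjusted p = 0.999), or 0.23 when control library 3 was left out.

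Tgm2, a partner of Adgrg1, was at 1035, 938 and 800 in controls against 967, 654 and 629 in KO, with a log2 fold change of -0.32, or -0.52 and -0.21 when KO library 1 or KO library 3 was dropped. Grk5, a receptor kinase, was at 147, 210 and 265 in controls against 192, 276 and 286 in KO, with 0.30, but this ranged from 0.069 when control library 1 was dropped to 0.49 when control library 3 was. Gnao1, an inhibitory G protein subunit, was at 533, 417 and 348 in controls against 518, 297 and 259 in KO, with -0.32, ranging from -0.12 when KO library 3 was dropped to -0.62 when KO library 1 was. Type IV collagen, the Adgrg6 ligand, was abundant, Col4a1 at 2408 to 3734 and Col4a2 at 2154 to 3166, with log2 fold changes of 0.085 in both. Of the Celsr adhesion receptors only Celsr2 passed the filter, at 47, 35 and 28 in controls against 39, 22 and 18 in KO, with a log2 fold change of -0.51 ± 0.34 (SE).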

How the data were processed

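The deposited table gives 1 column per library, and its values are treated as a score. They are read counts that the authors scaled with a single factor for each library and then rounded, which is inferred from the table's name, from the spacing of low values and from DESeq2 being named in the submitters' processing notes. Those notes also name Trimmomatic 0.39, STAR 2.6.1d and featureCounts 1.6.5 with mm10 and GRCm38.p5, without roles. Per the labels' protocols, 5 ng of total RNA entered a stranded low-input kit. The worth of 1 read was estimated from how often each low whole number occurs (0.755 to 1.399), and whole reads were not recovered, so no count model was used. Groups came from the sample descriptions.

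limma 3.58.1 in R 4.3.3 was fitted on log2(value + 1) with an intensity trend, 2-sided, on the 12735 genes with a mean of at least 10, with Benjamini-Hochberg adjustment over all of them and a threshold of 0.05. It was tested on simulated data. Members, lists and tests were chosen with earlier results of these data known. Named with all values are members with an unadjusted p under 0.05 with or without the block, groups that do not overlap or a mean of at least 100, those next to the filter, and up to 4 partner genes per list with p under 0.05, together with Gprc5c. Other members and partner genes given with values were added after their values were seen. Exon lengths and overlaps came from GENCODE M21, which matched all 88 members, and coordinates are the table's own. Same-numbered libraries correlated in their deviations from the group means at 0.586, 0.310 and 0.444 over genes. Control and KO libraries of unlike numbers correlated at -0.496 to 0.157. The replicate numbers were therefore treated as pairing the libraries, although neither these values nor any label says what a number marks. Alternatives were pseudocounts of 0.5 and 5, other filters, upper-quartile scaling, no trend, sample quality weights, the block, and leaving out libraries. A few genes are not reported here.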

Additional observations from a re-analysis of the deposited data

How the results depend on the processing

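The count of members past the threshold was 0 with every alternative except the block with both libraries numbered 1 left out (chosen after seeing the data), where it was 1, Adgrf5. For all genes that count was 2 with sample quality weights, 1 with the replicate block, 61 with the block and number 1 left out and 1 with number 2 left out. It was 0 whichever single library was left out. Partner genes past the threshold stayed at 0. Members at an unadjusted p under 0.05, 2 in the reported fit, were 5 with no filter, 0 at a mean of at least 50, 9 with quality weights, 8 with the replicate block, 10, 7 and 6 with the block when both libraries of number 1, 2 or 3 were dropped, and 1 to 9 when 1 library was left out (9 without KO library 1). The members' median was -0.2916 with no filter, where 88 members enter, and 0.0156 to 0.0461 when 1 library was left out. Gprc5c stayed lower, from -0.637 to -0.481 over single libraries left out. For each of these differences the cause was not tested.

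Of the members named, 10 turned sign in at least 1 alternative. With quality weights Gpr107 was at -0.056 and Gpr161 at 0.126. With the block and number 1 left out Adgra2 was at 0.050, with number 2 left out Adgrg6 was at 0.056, Gpr153 at -0.075, Gpr89 at 0.099 and Gpr135 at -0.272, and with number 3 left out Adgra3 was at -0.043, Gpr107 at -0.047, Gpr108 at -0.024 and Gpr161 at 0.111. Leaving out 1 library moved Adgra2 from -0.163 to 0.103, Adgra3 from -0.061 to 0.229, Adgrg1 from -0.035 to 0.639, Adgrg6 from -0.592 to 0.288, Gpr107 from -0.033 to 0.049, Gpr108 from -0.056 to 0.090, Gpr135 from -0.189 to 0.730, Gpr153 from -0.008 to 0.284, Gpr161 from -0.177 to 0.031 and Gpr89 from -0.084 to 0.104. Gpr4, Adgrf5, Gpr182, Adgrl3, Adgre5, Adgrl1, Gpr20 and Adgrb1 kept their sign in each alternative in which they were tested.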
